A study of Gallus gallus with 12 samples.

Results

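The genes of the vascular endothelial growth factor (VEGF) family and their receptors were followed through the development of the chick chorioallantoic membrane (CAM), the richly vascularized extra-embryonic membrane through which the embryo exchanges gases. The members were all probe sets that the platform annotation gives to VEGFA, VEGFC, FIGF (now called VEGFD), PGF, FLT1, KDR, FLT4, NRP1 or NRP2 as their only gene. They were 21 of the 38439 probe sets apart from controls, 3 for ligands, 13 for receptor tyrosine kinases and 5 for neuropilins. They covered 8 of the 9 listed genes, out of 13009 gene symbols on the array, since no probe set carried the symbol PGF in the annotation used here. At each of the embryonic days E5, E7, E10 and E14, CAMs were taken from 3 chick embryos, for which the labels give no treatment and no strain. At E5 this tissue is the allantoic vesicle, which the paper also calls CAM. Each CAM was hybridized to its own Affymetrix chicken GeneChip, for 12 arrays in all. Each array read RNA of the whole membrane, so that fewer cells of a type and less RNA per cell cannot be told apart.

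VEGF-A, VEGF-C and VEGF-D are secreted dimeric growth factors that act on receptor tyrosine kinases of the endothelium. VEGF-A binds FLT1 (VEGFR-1), which holds the ligand tightly but signals weakly, and KDR (VEGFR-2), the main driver of endothelial proliferation and sprouting. VEGF-C and, in mammals, VEGF-D bind FLT4 (VEGFR-3), which is known above all for lymphatic vessel growth, and after proteolytic processing also KDR. The neuropilins NRP1 and NRP2 are co-receptors without a kinase of their own that also bind class 3 semaphorins.

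Signals were scaled by the authors to a common target of 100 per array. A probe set entered the tests if its signal was at least 35 in all 3 CAMs of at least 1 stage, and it was called at a fold over 2 and an adjusted p under 0.05 (limma on log2 signals, Benjamini-Hochberg over 17726 probe sets). Of the 21 member probe sets 18 entered the tests, and each of the 8 genes kept at least 1. Where 1 probe set had to stand for a gene, the one with the highest mean signal was taken. A signal depends on the probes as well as on the transcript, so levels of different probe sets were not compared with each other.

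Signals of endothelial markers were read on every array of this mixed tissue. The summed signal of 13 endothelial markers, none of them a member and 11 of them tested, lay between 2968 and 4379 at E5, 6077 and 7905 at E7, 6201 and 9718 at E10, and 7031 and 9834 at E14. None of the 13 was at 0, but ROBO4 had signals of only 1.04 to 2.00 at E5, and ROBO4 and EMCN did not pass the filter. The array E7 replicate 3 stood apart in its median signal over all probe sets, 48.6 against 24.4 to 33.6 on the other 11 arrays. The 3' to 5' signal ratio of GAPDH, a measure of RNA integrity, was 1.19 to 1.30 at E14 and 0.921 to 1.10 at the earlier stages. For beta-actin it was 2.21 to 3.43 at E14, 2.76 in E7 replicate 3 and 1.19 to 1.66 in the other arrays, and its part in the E14 signals was not tested.

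VEGFD had 2 peaks, at E7 and at E14. Its signals were 69.8, 105 and 74.8 at E5, then 394, 317 and 267 at E7. They were 107, 51.3 and 66.6 at E10 and 437, 766 and 465 at E14. Every E7 and E14 CAM lay above every E5 and E10 CAM, and the E5 and E10 groups overlapped. From E5 to E7 VEGFD rose 3.93-fold (log2 1.97, SE 0.31, adjusted p = 0.00482, n = 3 per stage). It then fell by 2.17 on the log2 scale from E7 to E10 (SE 0.31, adjusted p = 0.0016), a 4.50-fold decrease. From E10 to E14 it rose 7.52-fold (log2 2.91, SE 0.31, adjusted p = 0.000154). The E14 level was 6.57-fold above E5 (adjusted p = 1.61e-05). E14 and E7 did not overlap, but their difference of 0.74 on the log2 scale (95% interval 0.09 to 1.39) did not pass (adjusted p = 0.0950). Between the troughs at E5 and E10 the difference was -0.20 (95% interval -0.85 to 0.46, adjusted p = 0.690). With 1 array left out the adjusted p of these steps ranged from 0.00293 to 0.0273 for the first, from 0.00115 to 0.0117 for the second and from 0.000203 to 0.00148 for the third.

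VEGFC, the other ligand known for lymphatic growth, was not called between any of the stages. Its signals were 205, 129 and 232 at E5, 234, 168 and 204 at E7, 185, 146 and 270 at E10, and 325, 167 and 132 at E14. All 4 stages overlapped, and E14 held both the highest CAM and the second lowest. Over the 6 comparisons between stages the log2 fold changes lay between -0.05 and 0.13, and their 95% intervals between -0.77 and 0.85, so that a 2-fold change lay outside each interval. The F test over the 4 stages gave an adjusted p of 0.988.

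VEGFA, the main ligand of sprouting angiogenesis, had low signals and a wide spread. Its single probe set had signals of 32.8, 62.5 and 45.0 at E5, 49.7, 78.5 and 135 at E7, 79.9, 87.6 and 102 at E10, and 67.0, 22.0 and 50.9 at E14. All 3 E10 CAMs lay above all E5 and all E14 CAMs, while E7 overlapped with each other stage. The E14 mean was lower than that at E10 by 1.09 on the log2 scale (SE 0.45, 95% interval of the change -2.05 to -0.12), which did not pass the test (adjusted p = 0.204). The difference of 0.99 from E5 to E10 did not pass either (adjusted p = 0.140), nor did the F test over stages (adjusted p = 0.127).

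**Figure D1:**
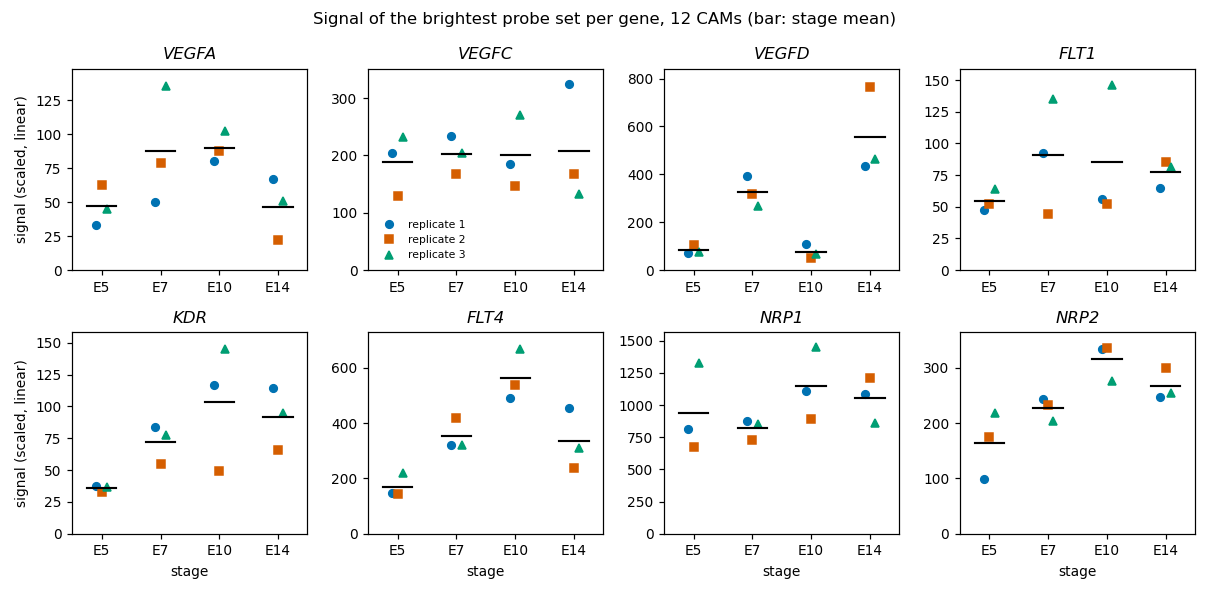
Scaled linear signal (y axis, from 0) of the brightest probe set of each of the 8 genes in the 12 CAMs, by stage (x axis). Points are single CAMs, marked by replicate number, and bars are stage means. VEGFD stands high at E7 and E14, FLT4 is highest at E10, and VEGFC stays between 129 and 325.

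FLT4, the receptor shared by VEGF-C and VEGF-D, had a single maximum at E10 in its brightest probe set, Gga.15805.1.S1_at. That probe set had signals of 147, 143 and 219 at E5 and of 322, 418 and 322 at E7. It reached 490, 536 and 667 at E10 and had 455, 238 and 309 at E14. Every E10 CAM lay above every CAM of the other stages, every E5 CAM lay below every other CAM, and E7 and E14 overlapped. FLT4 rose 3.36-fold from E5 to E10 (log2 1.75, SE 0.26, adjusted p = 0.000397). The single steps did not pass, with 1.08 from E5 to E7 (SE 0.26, adjusted p = 0.0555), 0.67 from E7 to E10 (adjusted p = 0.152) and -0.80 from E10 to E14 (adjusted p = 0.105). The paper, with another test and filter, lists FLT4 as higher from E5 to E7 by this same probe set. From E5 to E14 the difference of 0.95 had an adjusted p of 0.00950 but stayed under the fold minimum, and the F test over the 4 stages passed (adjusted p = 0.00104).

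The other FLT4 probe sets were dimmer. GgaAffx.26579.3.S1_s_at had signals of 30.7 to 39.4 at E5, 45.2 to 68.8 at E7, 58.0 to 88.6 at E10 and 37.8 to 54.8 at E14, with its highest mean again at E10 and its lowest at E5. Its log2 change from E5 to E10 was 1.02 (SE 0.35, adjusted p = 0.0502). With 1 array left out this change lay between 0.84 and 1.14, and its adjusted p between 0.0253 and 0.196. GgaAffx.3625.1.S1_at had signals between 1.25 and 77.2, with an SE of 1.19 on every log2 fold change, and was not called by limma (smallest adjusted p = 0.0538, from E5 to E10). Its highest mean was at E7, 53.2 against 46.5 at E10. From E5 to E10 both of these probe sets passed with SAM, the significance analysis of microarrays (q = 0.00431 and 0.00566) and in limma fits of the 6 arrays of E5 and E10 alone (adjusted p = 0.0247 and 0.0294), and GgaAffx.3625.1.S1_at also passed with an offset of 16 before the logarithm (0.0493), with the replicate number as a block (0.0247), and without E5 replicate 3 (0.0109) or E14 replicate 2 (0.0161). GgaAffx.26579.2.S1_at and Gga.439.1.S1_s_at did not pass the filter, and 1 further probe set shared by CSF1R and FLT4, with signals of 1.28 to 24.1, was not counted as a member.

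KDR was represented by 5 probe sets, all tested, that did not give one course. The brightest, Gga.7339.1.S1_at, had signals of 37.8, 32.4 and 36.5 at E5, of 83.8, 54.4 and 77.9 at E7, of 117, 49.1 and 145 at E10, and of 115, 65.8 and 94.9 at E14. The E5 CAMs lay below all others, and the later 3 stages overlapped with each other. KDR rose 2.65-fold from E5 to E10 by this probe set (log2 1.41, SE 0.39, adjusted p = 0.0204) and 2.52-fold from E5 to E14 (log2 1.33, SE 0.39, adjusted p = 0.0145). The E5 to E7 difference of 1.00 did not pass (adjusted p = 0.218). From E5 to E10 KDR no longer passed when E5 replicate 2 (adjusted p = 0.0658), E10 replicate 1 (0.0851) or E10 replicate 3 (0.111) was left out, and from E5 to E14 when E14 replicate 1 was (0.0601).

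From E5 to E7 the fold change was above 0 in 1 of the 5 KDR probe sets and below 0 in the other 4. None of these 5 changes was called. From E7 to E10 and from E5 to E14 the fold change was above 0 in all 5. At E7, Gga.807.1.S1_at had signals of 52.8, 37.9 and 16.5, Gga.807.1.S1_x_at 60.4, 56.5 and 5.43, and Gga.953.1.S1_at 48.6, 30.3 and 23.6. These 3 were lowest in E7 replicate 3, the array that stood apart in its median signal. The probe set GgaAffx.8835.1.S1_at had signals of 53.3, 9.59 and 11.4 at E7 and of 69.2, 102 and 67.1 at E14. It was called from E7 to E14 (log2 2.12, SE 0.58, adjusted p = 0.0183), and 2 of its 3 E7 signals were under 20. Without E7 replicate 1 the log2 change was 2.90 (adjusted p = 0.00177), and the call was lost without E7 replicate 2 (adjusted p = 0.0731) or without E14 replicate 2 (0.0603). Gga.807.1.S1_at, Gga.807.1.S1_x_at and Gga.953.1.S1_at were not called in any of the 6 comparisons (adjusted p of at least 0.249). The first of these and its x_at partner were designed from the same transcript record, so that they do not measure KDR independently.

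FLT1, the decoy-like receptor, was not called by limma in any comparison. Gga.150.2.S1_a_at had signals of 47.8, 52.4 and 64.1 at E5, of 92.4, 44.3 and 135 at E7, of 55.9, 52.5 and 146 at E10, and of 65.0, 85.4 and 81.3 at E14. The highest CAM was in E10 and the lowest in E7, and the smallest adjusted p over the 6 comparisons was 0.387. Gga.150.2.S2_at had 15.3, 29.7 and 60.9 at E5 and 53.1, 91.3 and 93.6 at E14, with a log2 difference of 1.34 (SE 0.54, adjusted p = 0.0605). This difference passed with SAM (q = 0.0127), without E5 replicate 3 (limma, adjusted p = 0.0220) and without E10 replicate 2 (0.0487). The third FLT1 probe set, with signals of 1.33 to 48.3, did not pass the filter.

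**Figure D2:**
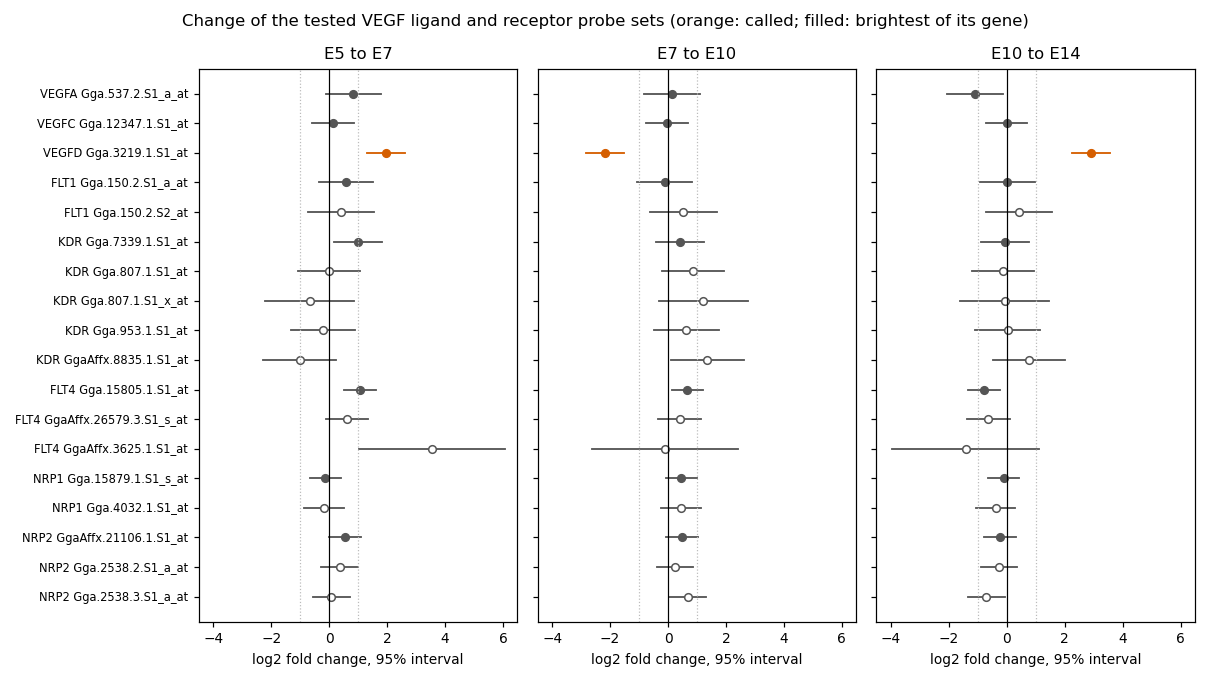
Log2 fold change of the 18 tested member probe sets (rows) for the 3 steps between neighbouring stages (panels), with 95% intervals from the limma fit. Filled points mark the brightest probe set of a gene, orange marks called probe sets, and dotted lines mark a 2-fold change. VEGFD is called in each step, and no other member is called in any of the 3.

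Of the neuropilins, NRP2 was called in 1 comparison and NRP1 in none. NRP1 had bright signals in its probe set Gga.15879.1.S1_s_at, 811, 671 and 1326 at E5, 878, 732 and 854 at E7, 1112, 891 and 1452 at E10, and 1088, 1212 and 860 at E14. The brightest CAMs of all were replicate 3 of E10 and replicate 3 of E5. Over the 6 comparisons the 95% intervals of its log2 fold change lay between -0.67 and 1.00, and the F test did not pass (adjusted p = 0.395). The second NRP1 probe set was not called either, with intervals between -1.07 and 1.14.

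NRP2, the co-receptor of VEGF-C, had signals of 99.0, 175 and 218 at E5, of 245, 232 and 205 at E7, of 335, 335 and 276 at E10, and of 247, 300 and 254 at E14 in GgaAffx.21106.1.S1_at. E10 lay wholly above E5 and E7. From E5 to E10 the rise was 2.02-fold (log2 1.01, SE 0.26, adjusted p = 0.0138), just over the fold minimum. The fold dropped under 2 without E5 replicate 1 (log2 0.69, adjusted p = 0.0628), without E10 replicate 1 (0.97, adjusted p = 0.0523) and without E10 replicate 2 (0.97, adjusted p = 0.0464). The other NRP2 probe sets had log2 differences of 0.61 and 0.75 from E5 to E10 and did not pass (adjusted p = 0.162 and 0.0924).

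Counted over the 18 tested probe sets, 1 was called from E5 to E7, where 1.26% of all tested probe sets were called, and that was VEGFD. From E7 to E10 it was again VEGFD alone (3.42% of all), as it was from E10 to E14 (2.7% of all). From E5 to E10 FLT4, KDR and NRP2 were called, 16.7% of the 18 against 14.1% of all. From E7 to E14 it was 1 KDR probe set (15.6% of all), and from E5 to E14 VEGFD and KDR, 11.1% against 28.4% of all. The F test over the 4 stages passed for 4 probe sets, of VEGFD, FLT4, KDR and NRP2, and for 32.9% of all. The groups did not overlap in 5 of the 18 at each of the 3 steps, which is 27.8% against 22.2%, 26.3% and 29.2% of all in order of time. They did not overlap in 8 of the 18 from E5 to E10 (46.9% of all), in 4 from E7 to E14 (34.6% of all) and in 6 from E5 to E14 (54.4% of all). The 2-stage comparisons share arrays with the steps and are not separate evidence.

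Ligands and receptors were set against each other within each array, as log2 ligand minus log2 receptor in 8 ligand and receptor pairs. A shared scaling of an array leaves this difference unchanged. The pairs were taken from known binding, which for VEGFD was described in mammals. The 4 stages were compared by an exact permutation test of the between-stage sum of squares over all 369600 assignments of the 12 arrays, for which the smallest possible p is 6.49e-05, with Benjamini-Hochberg adjustment over the 8 pairs. The pairs share genes, KDR and FLT4 among them, so the tests are not independent.

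VEGFD against FLT4 changed over the stages (exact p = 0.000325, adjusted p = 0.00260). With the E5 mean set to 0, the difference was 1.31, 0.62 and 0.76 at E7, -1.17, -2.36 and -2.30 at E10 and 0.97, 2.72 and 1.61 at E14. The mean shifted by 0.90 from E5 to E7, by -2.84 from E7 to E10 and by 3.71 from E10 to E14, and neighbouring stages did not overlap. The ligand stood lowest against its receptor at E10, where the brightest FLT4 probe set had its highest signals. VEGFD against KDR had shifts of 0.98, -2.58 and 2.98 at the same steps (exact p = 0.000844, adjusted p = 0.00338), again without overlap of neighbouring stages. VEGFD alone changed by 1.97, -2.17 and 2.91 on the log2 scale at these steps. The brightest FLT4 and KDR probe sets were not called at any of them. Both VEGFD pairs thus largely carry the VEGFD change given above and are not separate evidence.

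VEGFC against FLT4 shifted by -0.95, -0.71 and 0.79 at the 3 steps (exact p = 0.00377, adjusted p = 0.0100). VEGFC itself was not called at any of these steps. It did not pass with the FLT4 probe set of the smallest spread in place of the brightest (adjusted p = 0.174), nor without E5 replicate 1 (0.0507). VEGFC against KDR shifted by -0.87, -0.45 and 0.06 (exact p = 0.0142, adjusted p = 0.0284) and did not pass without E5 replicate 1 (0.0758), E5 replicate 3 (0.107), E7 replicate 1 (0.0510) or E7 replicate 2 (0.0510). All KDR pairs used the brightest KDR probe set, which is also the one of the smallest spread. From E5 to E7 its change was above 0, while that of the other 4 KDR probe sets was below 0, and none of these changes was called. No pair was tested with those 4. The remaining 4 pairs did not pass, VEGFA against KDR (exact p = 0.124, adjusted p = 0.199), VEGFA against NRP1 (exact p = 0.216, adjusted p = 0.288), VEGFC against NRP2 (exact p = 0.351, adjusted p = 0.394) and VEGFA against FLT1 (exact p = 0.394, adjusted p = 0.394).

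**Figure D3:**
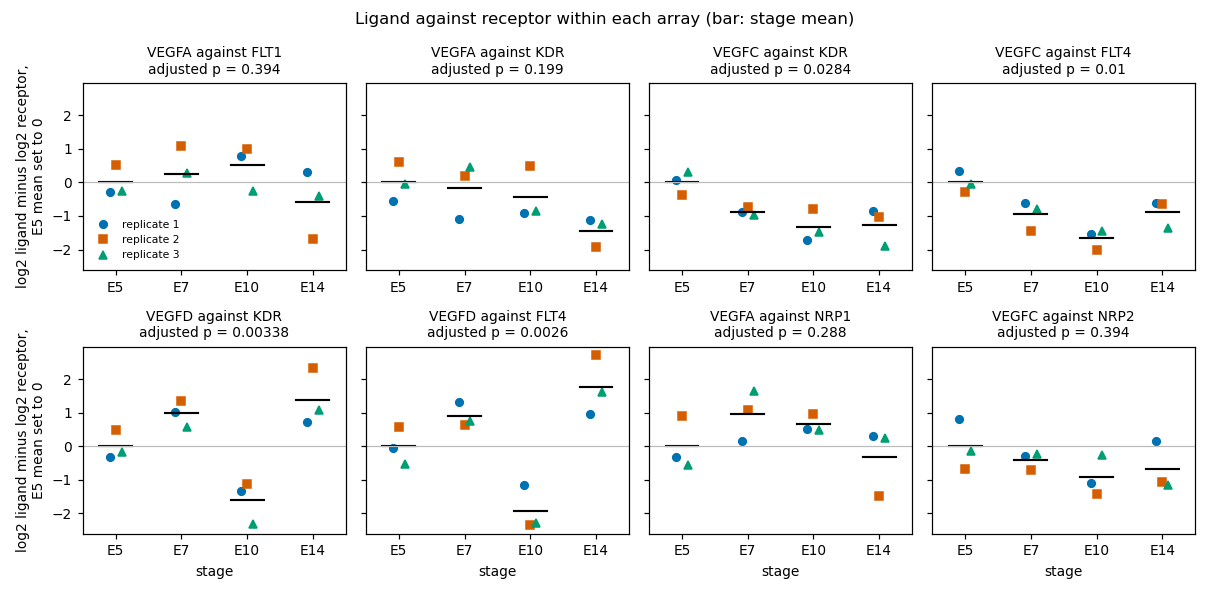
Log2 signal of the ligand minus log2 signal of the receptor within each array, with the E5 mean set to 0 (y axis), by stage (x axis) for the 8 pairs. Points are single CAMs, bars are stage means, and the adjusted p of the exact permutation test stands above each panel. Both VEGFD panels fall below 0 at E10 and lie above 0 at E7 and E14.

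Receptors and endothelial markers were read from the same arrays. Of the 15 tested receptor and neuropilin probe sets, 14 had their highest E10 signal in replicate 3, and in 11 of them this was the highest of all 12 arrays. All 11 tested endothelial markers also had their highest E10 signal in that array, whose summed endothelial signal was 9718 against 6201 and 6416 in the other E10 CAMs. At E5, replicate 3 held the highest signal of the stage for 13 of the 15 receptor and neuropilin probe sets and for 9 of the 11 markers. Several of the 15 probe sets belong to the same gene, so they are not independent. How many of all tested probe sets were highest in these arrays was not counted. The part of the endothelial content in the receptor signals was not tested.

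From E5 to E10 the median log2 fold change was 0.89 over the 10 tested receptor kinase probe sets and 1.34 over the 11 endothelial markers, against 0.04 over all tested probe sets. These medians are a description only, since a probe set could enter the tests through 1 high stage alone. From E5 to E7 these medians were 0.50 and 0.88, from E7 to E10 0.58 and 0.23, and from E10 to E14 -0.08 and 0.10. Of the 11 endothelial markers 2 were called higher from E5 to E7, 5 from E5 to E10 and 7 from E5 to E14. Over all tested probe sets 1.26%, 14.1% and 28.4% were called in either direction in these comparisons.

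The lymphatic markers PROX1, LYVE1, PDPN, RELN and NR2F2, of which PDPN did not pass the filter and none was at 0, summed to 809 to 944 at E5, 1433 to 2154 at E7, 1667 to 2306 at E10 and 1374 to 2732 at E14. At E10, the trough of VEGFD, their sum lay within the range of the E14 CAMs, but the single markers did not move together. NR2F2 gave the largest part of the E5 sums, with 473, 631 and 547, and had 964, 269 and 1300 at E14. LYVE1 had signals of 608, 516 and 653 at E7 and of 305, 512 and 292 at E10, and was not called lower at that step. RELN had 188, 225 and 321 at E7 and 603, 443 and 857 at E10. RELN rose from E5 to E7 (log2 2.29, adjusted p = 0.000827), as did LYVE1 (1.64, adjusted p = 0.0107). Mural cell markers summed to between 872 and 947 at E5 and between 2362 and 5223 at E14. For epithelial markers these ranges were 3251 to 4402 and 15493 to 17837, and for leukocyte markers 268 to 380 and 2951 to 4870. Erythroid sums lay between 22964 and 42292 at E7 and between 15412 and 19847 at E10, and neuronal sums between 133 and 145 at E5 and between 1260 and 1817 at E10. The part of these cell types in the VEGFD signal was not tested.

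**Figure D4:**
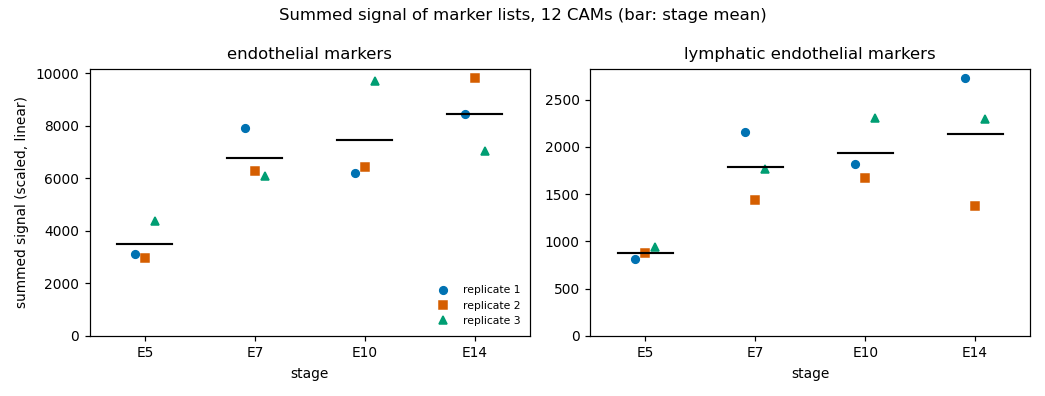
Summed linear signal (y axis, from 0) of 13 endothelial and 5 lymphatic endothelial markers in each CAM, by stage (x axis). Points are single CAMs marked by replicate number, and bars are stage means. The E5 CAMs are the lowest in both panels, and E10 replicate 3 is the highest E10 CAM in both.

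The sex of the embryos is not labelled, and the W-linked gene HINTW, which males lack, was unevenly spread over the stages. Its signal was 3830 to 5386 in all E10 CAMs, 3680 in E5 replicate 3, 7633 in E7 replicate 2, and 4680 and 4458 in E14 replicates 1 and 3. In the other 5 arrays it was 2.59 to 110. With log2 HINTW as a covariate, KDR from E5 to E10 had an adjusted p of 0.0758 and NRP2 had one of 0.0565, while FLT4 kept its call.

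The surrounding pathway was read from lists of genes with their brightest probe set each. Among 8 tested genes of ligand processing and ligand traps, CCBE1, which promotes the proteolytic activation of VEGF-C, fell by 1.81 on the log2 scale from E10 to E14 (from 101 to 29.0, adjusted p = 0.0295). It was the only called gene of this list in the 3 steps. In the longer comparisons 1 gene was called higher from E5 to E10, 1 higher and 2 lower from E7 to E14, and 3 higher and 1 lower from E5 to E14, where 14.1%, 15.6% and 28.4% of all tested probe sets were called in either direction. From E5 to E14, PCSK6 and FURIN, proprotein convertases, rose by 1.44 (adjusted p = 0.000235) and 1.62 (adjusted p = 0.0232). CCN2, a matrix-associated protein that binds VEGF-A, rose by 1.96 (adjusted p = 2.42e-05), and the protease ADAMTS1 fell by 1.29 (adjusted p = 0.0114).

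Of 9 tested semaphorins and plexins, which share the neuropilins, SEMA3C rose from 48.2 to 151 between E5 and E7 (log2 1.72, adjusted p = 0.0166), the only call of the list in the 3 steps. Its signals were 244, 214 and 173 at E10 and 71.6, 133 and 105 at E14, a fall that was not called by limma. The paper lists SEMA3C as lower at that step by this probe set and by another. There were 2 genes called higher from E5 to E10 (14.1% of all) and 2 from E7 to E14 (15.6% of all). From E5 to E14 SEMA3C was called higher with SEMA3D (2.07, adjusted p = 0.000517) and PLXNA2 (2.39, adjusted p = 0.000545), and SEMA3A fell by 1.34 (adjusted p = 0.0111). Of all tested probe sets 28.4% were called in that comparison. PLXNA2 had low E5 signals of 23.7, 25.9 and 19.3.

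Among 23 tested receptor partners and signaling genes, PIK3R1, a regulatory subunit of PI3-kinase, rose from E5 to E7 (log2 1.55, adjusted p = 0.00200). The adaptors SHC1 and GAB1 rose from E7 to E10 by 2.64 (adjusted p = 0.00365) and 1.14 (adjusted p = 0.00573). SHC1 had signals of 56.6, 13.7 and 25.1 at E7 and of 146, 157 and 207 at E10. The size of its change thus rests on low E7 signals. None of the 23 was called by limma from E10 to E14 (3 had an unadjusted p under 0.05). In the longer comparisons 5 were called higher and 2 lower from E5 to E10, 1 and 1 from E7 to E14, and 6 and 3 from E5 to E14 (14.1%, 15.6% and 28.4% of all). CDH5, one of these 6, also belongs to the endothelial markers. The 3 largest rises from E5 to E14 were those of SHC1 (1.96, adjusted p = 0.00230), PIK3R1 (1.88, adjusted p = 1.55e-05) and PTPRB, the vascular endothelial phosphatase (1.70, adjusted p = 0.00822). The 3 that fell were SHC2 (from 91.1 to 7.72, adjusted p = 0.000163), PTPN11 (-1.43, adjusted p = 0.00131) and AKT1 (-1.36, adjusted p = 0.00977). The list median from E5 to E14 was -0.01, against 0.03 over all tested probe sets.

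Of 6 tested oxygen-sensing genes, which govern VEGF-A transcription under low oxygen, none was called by limma in the 3 steps in its brightest probe set. At these steps 1, 1 and 3 had an unadjusted p under 0.05. EPAS1 has 2 probe sets, and only the brighter was read here. By another probe set than this one, the paper lists EPAS1 as higher from E7 to E10 and lower from E10 to E14. It also reports quantitative PCR on pooled CAMs, with the same direction at both steps. EGLN1, a prolyl hydroxylase, rose from E7 to E14 (log2 1.09, adjusted p = 0.00331), and HIF1AN, the asparaginyl hydroxylase, from E5 to E14 (1.10, adjusted p = 0.000589). Of 9 tested response and sprouting genes, the netrin receptor UNC5B (1.49, adjusted p = 0.00114) and the ERK phosphatase DUSP5 (1.84, adjusted p = 0.00612) rose from E7 to E10. The transcription factor ETS1 rose from E10 to E14 (1.05, adjusted p = 0.0376). Of the 9, 2 were called higher from E5 to E10, 3 from E7 to E14, and 5 from E5 to E14 (14.1%, 15.6% and 28.4% of all), with a list median of 1.15 in the last against 0.03 over all tested probe sets. Among these 5, ETS1 rose 4.07-fold (adjusted p = 3.68e-05), UNC5B 3.08-fold (adjusted p = 3.02e-05) and DUSP5 2.84-fold (adjusted p = 0.00242) from E5 to E14.

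The genes with the most similar course over the 12 arrays were found by the root mean square difference between log2 signals centred on their means, among 9005 genes. For VEGFD they were SPIRE2 (0.55), ERBB2 (0.62) and KRT80 (0.63), against a median of 1.39 over all candidates. Each of the 3 had lower mean signals at E5 and E10 than at E7 and E14, although SPIRE2 and ERBB2 did not exceed a stage mean of 66.9. For FLT4 they were EBF1 (0.30), ZDHHC14 (0.31) and HS6ST1 (0.33), against a median of 0.83, and each had its highest stage mean at E10. For KDR they were LRRC15 (0.27), PDGFRB, the platelet-derived growth factor receptor of mural cells (0.28), and LARP1B (0.32), against a median of 0.84. For NRP2 they were ASAH1 (0.17), STIM1 (0.21) and ELOVL5 (0.24), against a median of 0.66. All these genes were picked by their closeness over the same 12 arrays. Shared peaks and troughs thus follow from the choice and are not separate evidence. A gene of small range can come close by its small range alone, so these differences cannot be compared between members.

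**Figure D5:**
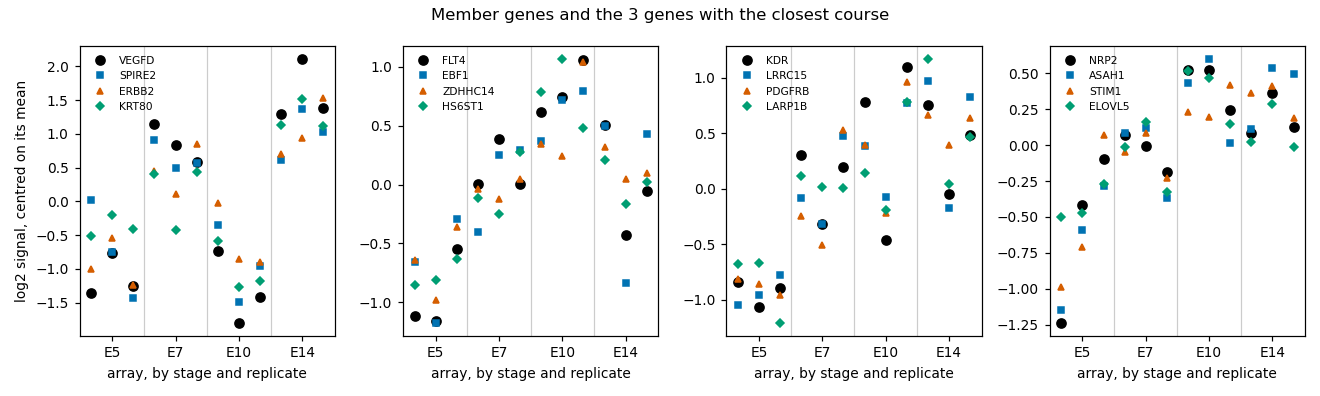
Log2 signal centred on its mean over the 12 arrays (y axis) for VEGFD, FLT4, KDR and NRP2 and the 3 genes closest to each, by array in order of stage and replicate (x axis). Grey lines separate the stages. The VEGFD panel shows high values at E7 and E14, and the FLT4 panel its highest values at E10.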

How the data were processed

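The deposited values were signals, linear intensity values that the authors computed with GCOS 1.2 (default settings) and scaled globally to a trimmed mean of 100 per array. No detection calls were used here, so the authors' filter on present calls was replaced by a signal of at least 35 in all 3 CAMs of 1 stage. The 96 control probe sets were left out. Signals were taken to log2 without an offset and fitted with limma 3.58.1 in R 4.3.3, with 1 mean per stage over 12 arrays and variances moderated along a trend with signal. The 6 comparisons and the F test were adjusted over 17726 probe sets (median SE of a log2 fold change 0.33, 8 residual degrees of freedom). The number of arrays limits the precision, and p-values measure the spread between single CAMs. Permutation tests were run in Python 3.11.15 with numpy 2.4.6.

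Gene names came from the platform annotation, which gave 1 symbol to 27168 probe sets, several to 177 and none to 11094, updated where it is outdated. Pathway genes were named where called, at most 3 per list, comparison and direction, by size of change. The members, lists and comparisons were chosen with earlier results of these data known. The alternatives concerned the filter, the treatment of low signals (offset of 16, floor of 20), quantile or median normalization, moderation without the trend, SAM, fits of 6 arrays, the fold minimum, a block on replicate number and each array left out in turn. A covariate for the W-linked gene HINTW was added after seeing the data. No fold change or p-value of the authors was used. The simulated data on which the fit was checked are not reported here.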

Additional observations from a re-analysis of the deposited data

How the results depend on the processing

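None of the results that were called, or that were called under some alternative, changed its direction, and the 3 calls of VEGFD between neighbouring stages and the FLT4 call from E5 to E10 were kept under all of them. From E5 to E7, 2 member probe sets were called with the stricter filter (a signal of 70; 1.91% of all) and 2 with signals under 20 set to 20 (1.58%), FLT4 joining VEGFD in both, and 1 to 2 with 1 array left out. FLT4 joined without E5 replicate 3, E14 replicate 1 or E14 replicate 2. From E7 to E10 and from E10 to E14 the counts with 1 array left out were 1 to 2, with KDR added without E7 replicate 1 in the first and FLT4 added without E14 replicate 1 in the second. From E5 to E10 the count was 5 with the 6 arrays of the stages alone (17.8% of all, against 14.1% before), 5 with SAM (20.3%), 1 with the HINTW covariate (10.9%) and 1 to 4 with 1 array left out, where E10 replicate 1 gave the lowest (10.8%). From E7 to E14 it was 0 with the stricter filter, which drops the called probe set (18.8% of all), 0 with the 6 arrays alone (10.4%) and 0 to 1 with 1 array left out. From E5 to E14 it was 1 with the stricter filter (32.7% of all, against 28.4% before), which drops the called KDR probe set. It was 4 with SAM (33.4%), FLT1 among them, and 4 with the adjusted p alone (38.8%). With 1 array left out it was 1 to 6, 6 without E5 replicate 3 (25.3%), 4 without E14 replicate 2 (27.7%) and 1 without E14 replicate 1 (25.6%). The F test passed for 2 without a filter (13.5% of all), for 2 after quantile normalization (29.9%), for 2 with the HINTW covariate (29.5%) and for 2 to 5 with 1 array left out, VEGFD and FLT4 where 2 passed (without E5 replicate 1, E5 replicate 2 or E10 replicate 1). Of the ligand and receptor pairs, 2 to 4 passed with 1 array left out, the 2 VEGFD pairs without E5 replicate 1. NRP2 from E5 to E10 also dropped under the fold minimum with an offset of 16 (log2 0.94), after quantile normalization (0.92) and with medians equalized (0.89), and VEGFC against KDR had an adjusted p of 0.0509 after quantile normalization. Over single probe sets and pairs 505 values kept their side of the threshold, 29 newly passed and 22 no longer passed. Where no cause is named, the cause was not tested.

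In the labels, samples with the same replicate number shared only the number, and whether they shared a batch is not given. The correlation of their deviations from the stage means was -0.14 to 0.07 over 18 pairs, and 1 of 12 arrays was closest to an array of its own number. With the replicate block 1, 1, 1, 4, 1 and 3 member probe sets were called, for the 3 steps in order of time and then for E5 to E10, E7 to E14 and E5 to E14, against 1.3%, 3.04%, 2.56%, 13.8%, 15.3% and 28.1% of all. FLT1 passed from E5 to E14 with it (adjusted p = 0.0312).

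Signals under 35 limit FLT1, KDR and the dim FLT4 probe sets, and VEGFA in 2 arrays. Among the named pathway genes they limit CCBE1 at E14, SHC1 at E7, SHC2 at E10 and E14, and PLXNA2 at E5, among others. With 3 CAMs per stage a miss of the threshold does not show that a level was unchanged.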

Other observations

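VEGFRKDRL, annotated as a VEGF receptor KDR-like gene and not among the listed members, was chosen after its values were seen. Its 3 probe sets were each called higher from E5 to E10, by 2.55 (SE 0.76, adjusted p = 0.0291), 1.93 (SE 0.42, adjusted p = 0.00554) and 2.23 (SE 0.49, adjusted p = 0.00621) on the log2 scale, and each from E5 to E14 (adjusted p = 0.0482, 0.0385 and 0.0353). Of all tested probe sets 14.1% were called from E5 to E10 and 28.4% from E5 to E14. The 3 probe sets belong to the same gene, so they are not independent, and they were not read with arrays left out. The brightest of them had VEGFRKDRL signals of 87.1, 81.9 and 120 at E5, of 198, 152 and 220 at E7, of 336, 193 and 734 at E10, and of 132, 347 and 213 at E14. E10 replicate 3 was the highest of the 12 arrays in all 3, as it was for 11 of the 15 tested receptor and neuropilin probe sets.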
